A study of Mus musculus with 9 samples.

Results

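Collagen chains are modified inside the cell before they are secreted, and the genes for that work are the subject here: 10 mouse genes for the prolyl and lysyl hydroxylases, a collagen chaperone, and enzymes that process collagen outside the cell. They are P4ha1, P4ha2, P4ha3, Plod1, Plod2, Plod3, Serpinh1, Loxl2, Pcolce and Bmp1, taken by name with every probe set annotated to them. A probe set is a group of short probes on the array that together read out a transcript. Of the 10 genes, 9 had at least 1 probe set annotated to that gene alone, 16 probe sets in all out of 45101 on the array, and they stood among 18193 genes tested. The other 2 probe sets, those for Loxl2, were also annotated to Gm21451. They are described by their identifiers and were not counted as Loxl2.

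The samples were cardiomyocyte cultures made from mouse embryonic stem cells, harvested on day 10, 20 or 30 of differentiation, with 3 arrays at each age. All came from the synp line, derived from R1 embryonic stem cells of 129X1 x 129S1 background, in which the Ncx1 promoter drives PAC, a gene for puromycin resistance. Ncx1 encodes a cardiac exchanger of sodium for calcium and is listed as Slc8a1. Differentiation was driven in every group by the cytokines FGF10, bFGF, VEGF, BMP4 and Activin A, and puromycin was present from day 7 to remove cells without an active Ncx1 promoter, so no group lacked the selection. Whether arrays of 1 age came from separate differentiations is not in the labels, and p-values here then reflect only array-to-array spread that could be technical. The study set out to judge how mature such cardiomyocytes become in culture.

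Collagen alpha chains are hydroxylated on proline and lysine in the endoplasmic reticulum, by enzymes that need oxygen, iron and ascorbate. Hydroxyproline stabilises the triple helix at body temperature, and hydroxylysine carries sugars and takes part in crosslinks between molecules. The chaperone HSP47 binds the folded helix on its way to the Golgi, and outside the cell the propeptides are removed and lysyl oxidases start the crosslinking. In the heart this machinery is best known from fibroblasts, although cardiomyocytes make basement membrane collagen of their own.

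The 3 prolyl hydroxylase alpha subunit genes all rose, and their promoters are shown because they differ in a motif of the hypoxia response. Each line is the 250 bases before the transcription start, 5′ to 3′ on the gene's strand, from the RefSeq promoter table of build GRCm38.p6. Capitals mark ACGTG or GCGTG on either strand, the core letters bound by hypoxia-inducible factors, so CACGT and CACGC are the same motifs read on the opposite strand.
P4ha1, chr10:59323046-59323295, plus strand: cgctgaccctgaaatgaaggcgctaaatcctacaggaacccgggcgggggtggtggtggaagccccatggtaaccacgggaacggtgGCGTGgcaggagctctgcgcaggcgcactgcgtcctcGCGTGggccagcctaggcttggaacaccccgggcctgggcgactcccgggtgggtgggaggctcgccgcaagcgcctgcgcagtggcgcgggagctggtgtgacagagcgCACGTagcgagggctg
P4ha2, chr11:54100674-54100923, plus strand: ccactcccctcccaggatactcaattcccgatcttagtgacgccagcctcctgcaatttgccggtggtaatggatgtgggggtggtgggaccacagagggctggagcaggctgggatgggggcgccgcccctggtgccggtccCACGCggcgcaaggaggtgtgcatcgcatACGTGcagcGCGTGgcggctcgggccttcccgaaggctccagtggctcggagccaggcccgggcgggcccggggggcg
P4ha3, chr7:100285270-100285519, plus strand: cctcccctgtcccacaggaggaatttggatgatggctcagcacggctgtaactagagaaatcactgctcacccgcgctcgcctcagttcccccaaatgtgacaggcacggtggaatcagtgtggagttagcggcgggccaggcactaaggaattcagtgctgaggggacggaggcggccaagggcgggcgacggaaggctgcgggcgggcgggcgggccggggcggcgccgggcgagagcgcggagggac
P4ha1 held 1 ACGTG and 2 GCGTG matches, and so did P4ha2, while P4ha3 held 0 of either in this window. Of 32851 promoters in the table, 16.6% held ACGTG, 28.2% held GCGTG and 38.6% held at least 1 of them over the same length. Promoters were found for 7 of the 10 genes. Among the other 4 of these, Plod3 held 1 ACGTG and 3 GCGTG, Serpinh1 held 1 ACGTG, and Plod1 and Pcolce held 1 GCGTG each. A match is a description of letters and not a binding site.

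The arrays were judged by their built-in controls and by markers of cell types. The 27 poly-A spike probe sets, RNAs added before labelling, averaged 5.05 and 4.90 (log2) in day 10 replicates 2 and 3, and 5.63 to 6.33 in the other arrays. The 3′ minus 5′ difference of the beta-actin control, a sign of RNA integrity, was 0.79 in day 30 replicate 2 and 0.23 to 0.59 elsewhere. Genes had a median SD of 0.187 among day 10 arrays, against 0.130 (day 20) and 0.137 (day 30). The SEs and intervals given for genes come from 1 variance pooled over the ages and do not show the wider spread at day 10. The 18S control read 12.97 in day 10 replicate 3 and 10.66 in both other day 10 arrays, and replicate 3 was also the highest at day 20 and day 30. All 10 cardiomyocyte markers examined were above the median of all gene values (6.62, log2) at every age, with a mean over the list of 11.72 to 12.52 at day 10 and 12.52 to 12.59 at day 30. Slc8a1 itself measured 9.63 ± 0.38, 8.17 ± 0.20 and 8.50 ± 0.83 at the 3 ages (SD, n = 3).

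Between day 10 and day 30, 6 of the 9 genes rose and none fell: P4ha1, P4ha2, P4ha3, Plod1, Plod3 and Pcolce. Over all genes 11.2% rose and 9.92% fell by the same call, an adjusted p of at most 0.05 in limma. The median difference of the 9 genes was 1.34 on the log2 scale, against -0.03 over all genes. The step from day 10 to day 20 held 5 of these rises, all but that of Pcolce, where 7.3% of all genes rose and 6.69% fell. From day 20 to day 30 limma called 0 of the 9, and 0 also at an unadjusted p under 0.05, while 0.335% of all genes were called in either direction and 10.9% had an unadjusted p under 0.05. Arrays of the later age lay wholly above those of day 10 in 7 of 9 genes at day 30, against 17.4% of all genes, and in 5 of 9 at day 20, against 14.5%. Day 30 lay wholly above day 20 in 1 of 9, Pcolce, against 11.7%. Comparisons with day 10 share the same 3 arrays and are not independent of each other.

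**Figure D1:**
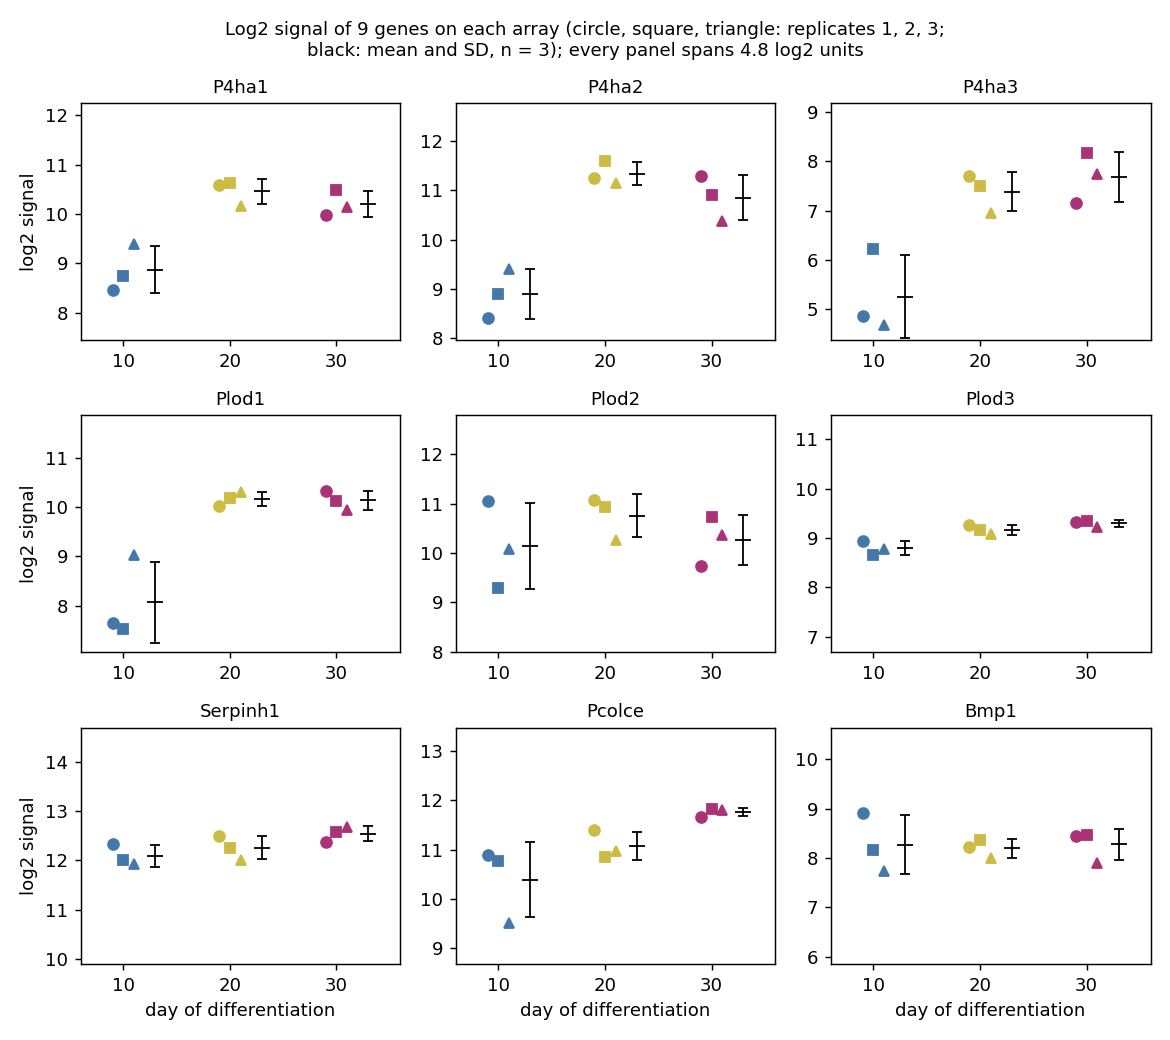
Log2 signal (vertical axis) of the 9 genes with probe sets of their own, by day of differentiation (horizontal axis), with 1 point per array, shapes for replicates 1 to 3, and black bars for the mean and SD of 3 arrays. The 3 prolyl hydroxylase genes, Plod1 and Plod3 are lower in every day 10 array than in any later one, whereas Plod2 and Bmp1 overlap at all ages.

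The P4ha genes encode the catalytic alpha subunits of prolyl 4-hydroxylase, which pair with protein disulphide isomerase, the product of P4hb. P4ha2 measured 8.40, 8.90 and 9.41 (log2 signal) in the day 10 arrays. It measured 11.25, 11.61 and 11.16 at day 20, and 11.28, 10.91 and 10.37 at day 30. Every later array was above every day 10 array, and day 10 replicate 3 was the highest of its age. P4ha2 thus rose by 2.44 by day 20 (5.42-fold, SE 0.30, adjusted p = 0.0028) and by 1.95 by day 30 (3.87-fold, SE 0.30, adjusted p = 0.0034).

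P4ha1, the most widely used alpha subunit gene, had 2 probe sets. The brighter gave 8.46, 8.74 and 9.39 at day 10. At day 20 it gave 10.59, 10.63 and 10.16, and at day 30 9.99, 10.49 and 10.14. Again the day 10 arrays lay below all others. The rise was 1.59 by day 20 (3.02-fold, SE 0.25, adjusted p = 0.0071) and 1.34 by day 30 (2.53-fold, SE 0.25, adjusted p = 0.0080). The second probe set, 1426519_at, rose by 1.19 by day 30 (adjusted p = 0.027 over 45037 probe sets). The 2 probe sets differed in day 30 replicate 2, which was the highest day 30 array by the first, at 10.49, and the lowest by the second, at 8.39. That array also had the highest 3′ minus 5′ difference of beta-actin, and the part of this in the gap was not tested.

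P4ha3, the alpha subunit gene described last in this family, had a single probe set. It gave 4.87, 6.22 and 4.67 at day 10, below the median of all gene values in each array. At day 20 it gave 7.71, 7.50 and 6.95, and at day 30 7.14, 8.17 and 7.74. The groups of day 10 and the later ages did not overlap, although day 10 replicate 2 stood above its companions. Endoderm markers, which did not pass in any comparison, averaged 4.89 to 5.01 in the day 10 arrays, so 2 of the 3 readings of P4ha3 lay below that level and may be background. The measured signal rose by 2.43 by day 30 (SE 0.43, adjusted p = 0.0066), and no fold of transcript is given. By day 20 the rise was 2.13 (SE 0.43, adjusted p = 0.018), and this call was lost without day 10 replicate 1 (adjusted p = 0.053), day 20 replicate 1 (0.059) or day 20 replicate 2 (0.064). With arrays weighted by their quality the day 20 rise was 1.41 (adjusted p = 0.024).

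The Plod genes encode lysyl hydroxylases with different preferences along the collagen molecule. Plod1, whose product acts on the helical part, gave 7.66, 7.52 and 9.02 at day 10. It gave 10.02, 10.19 and 10.30 at day 20, and 10.33, 10.13 and 9.95 at day 30. Day 10 replicate 3 lay between its companions and the later arrays, and no array of day 10 reached them. Plod1 rose by 2.11 by day 20 (4.3-fold, SE 0.35, adjusted p = 0.0088) and by 2.07 by day 30 (4.2-fold, SE 0.35, adjusted p = 0.0055). Its other probe set, 1445893_at, was dim, at 4.19 to 4.79 in all arrays, and differed by 0.32 by day 30 (adjusted p = 0.12). With the mean of both probe sets the gene's differences were 1.12 by day 20 (adjusted p = 0.018) and 1.20 by day 30 (adjusted p = 0.0088).

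Plod3, whose product also adds glucose to galactosyl-hydroxylysine, changed by much less, with narrow spread. The day 10 arrays read 8.94, 8.65 and 8.78. Those of day 20 read 9.27, 9.15 and 9.07, and those of day 30 read 9.33, 9.34 and 9.21. The groups did not overlap with day 10 at either later age. The rise was 0.51 by day 30 (1.42-fold, SE 0.10, adjusted p = 0.011). By day 20 it was 0.38 (1.3-fold, SE 0.10, adjusted p = 0.046), a call that was lost in 12 of 18 alternatives, among them the fits without day 10 replicate 2 (adjusted p = 0.13), day 10 replicate 3 (0.055) or any 1 of the 3 day 20 or 3 day 30 arrays (0.064 to 0.13).

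Plod2, whose product hydroxylates the telopeptides at the ends of collagen and so feeds a class of hard-to-cleave crosslinks, did not pass the test. Its brighter probe set gave 11.05, 9.30 and 10.07 at day 10. It gave 11.08, 10.93 and 10.25 at day 20, and 9.73, 10.72 and 10.36 at day 30. All 3 ages overlapped, and day 10 alone spanned from the lowest array of the 9 to nearly the highest. The difference of day 30 from day 10 was 0.13 (95% interval -0.90 to 1.17, adjusted p = 0.88), and its other probe set gave 0.48 (-0.71 to 1.67). These intervals include a 2-fold difference, so the data do not show that Plod2 was steady.

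Serpinh1 encodes HSP47, the collagen-specific chaperone. Its brighter probe set gave 12.34, 12.01 and 11.92 at day 10. It gave 12.49, 12.26 and 12.02 at day 20, and 12.37, 12.57 and 12.67 at day 30. All day 30 arrays lay above all day 10 arrays, the closest being day 30 replicate 1 and day 10 replicate 1. The difference was 0.45 (SE 0.16, 95% interval 0.09 to 0.82, adjusted p = 0.082), and 0.54 by the other probe set (adjusted p = 0.054). It passed without day 10 replicate 1 (0.58, adjusted p = 0.045) and with array weights (0.50, adjusted p = 0.027).

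Pcolce and Bmp1 act outside the cell on the same step. Bmp1 encodes the protease that cuts off the C-terminal propeptide of fibrillar procollagens, and Pcolce encodes a protein that speeds that cut. Pcolce gave 10.89, 10.77 and 9.51 at day 10. It gave 11.39, 10.85 and 10.98 at day 20, and 11.67, 11.83 and 11.80 at day 30. Day 30 lay above both earlier ages, and the low reading of day 10 replicate 3 was seen with both probe sets (9.51 and 9.07). The rise by day 30 was 1.38 (2.6-fold, SE 0.34, adjusted p = 0.024), and it was lost without any 1 of the day 30 arrays (adjusted p = 0.059 to 0.069) and in a fit of only the 2 ages (adjusted p = 0.059). The 2 steps contributed 0.68 and 0.70, and neither passed on its own (adjusted p = 0.23 and 0.53). The first step was 0.24 without day 10 replicate 3, so the even split rests on that array.

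Bmp1 gave 8.91, 8.16 and 7.73 at day 10 on its brightest probe set. It gave 8.23, 8.36 and 7.99 at day 20, and 8.46, 8.47 and 7.91 at day 30. The ages overlapped throughout, and day 30 differed from day 10 by 0.01 (95% interval -0.66 to 0.68, adjusted p = 0.99). Its other 2 probe sets were dimmer and gave -0.26 (-0.97 to 0.44) and 0.12 (-0.07 to 0.30). The third of these, 1427458_at, lay between 4.52 and 4.81 in all arrays.

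Loxl2 encodes a lysyl oxidase that acts on collagen, with a known preference for the basement membrane kind. The 2 probe sets shared by Loxl2 and Gm21451 were highest at day 20. Probe set 1431004_at gave 9.65, 10.31 and 10.45 at day 10. It gave 11.34, 11.49 and 11.39 at day 20, and 10.90, 11.23 and 10.50 at day 30. Day 20 stood above both other ages without overlap. It differed from day 10 by 1.27 (adjusted p = 0.018), and day 30 differed from day 10 by 0.74 (adjusted p = 0.075) and from day 20 by -0.53 (adjusted p = 0.56). Probe set 1452436_at was also above day 10 and day 30 in all 3 day 20 arrays, with differences of 0.96 from day 10 (adjusted p = 0.098) and, between day 30 and day 20, -1.04 (adjusted p = 0.33). At day 30 the 2 probe sets disagreed, the second being level with day 10 (-0.08, 95% interval -0.80 to 0.64). The signals of the genes cannot be told apart on these probe sets.

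**Figure D2:**
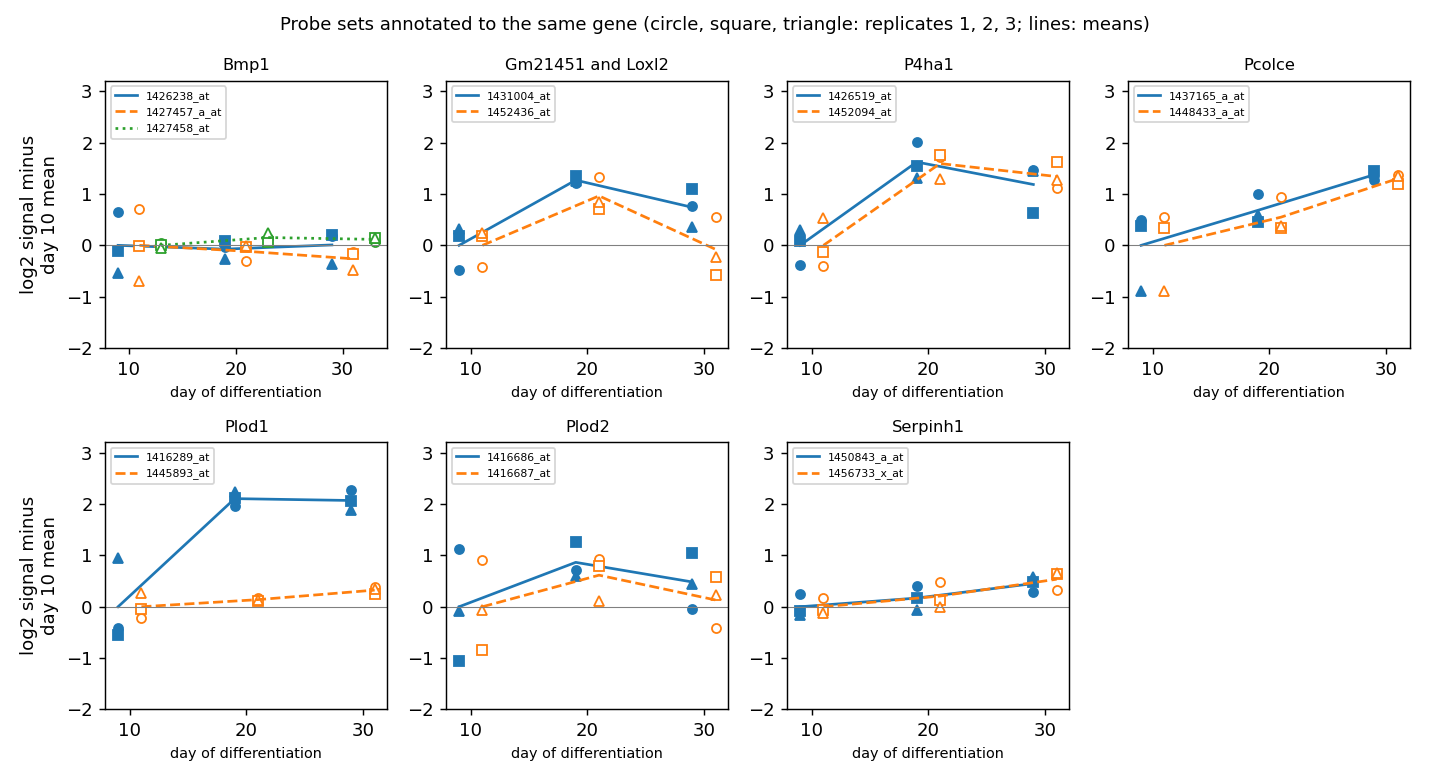
Log2 signal minus the probe set's mean at day 10 (vertical axis) by day of differentiation (horizontal axis), for the genes with more than 1 probe set; points are arrays, lines join the means, and a panel's probe sets have colours of their own. The pairs of P4ha1, Pcolce, Plod2 and Serpinh1 run together, 1 of the Plod1 probe sets is near 0 throughout, and the pair shared by Gm21451 and Loxl2 parts at day 30.

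Over the 16 probe sets of a single gene, 8 rose by day 30 and none fell, where 7.4% of 45037 probe sets rose and 15.1% changed in either direction. The 8 were both of P4ha1 and Pcolce and 1 each of P4ha2, P4ha3, Plod1 and Plod3. The count was 5 without day 30 replicate 1 or without day 30 replicate 3.

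**Figure D3:**
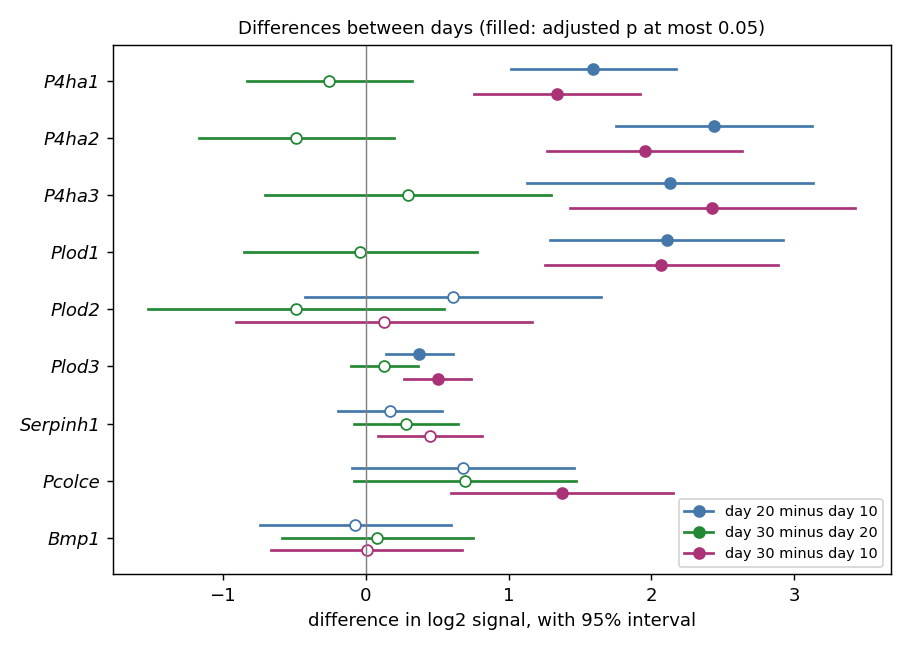
Differences in log2 signal between ages (horizontal axis) for the 9 genes, with 95% intervals from limma as lines and filled points for an adjusted p of at most 0.05. For P4ha1, P4ha2, P4ha3, Plod1 and Plod3 the intervals of both comparisons with day 10 lie above 0, and every interval of day 30 against day 20 includes 0.

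The shape over time was compared directly, as the later change minus the earlier change. None of the 9 genes passed over all genes in limma, where 0.478% did, and 4 of 9 had an unadjusted p under 0.05 (P4ha1, P4ha2, P4ha3 and Plod1), against 15.5% of all genes. For P4ha2 the value was -2.92 (SE 0.51, adjusted p = 0.060, from 0.011 to 0.27 over 17 alternatives). It passed when dim genes were left out (adjusted p = 0.035), with array weights (0.011) and without day 10 replicate 3 (0.011). P4ha1 (-1.85) and Plod1 (-2.14) passed with array weights and without day 10 replicate 3 as well. For Pcolce the value was 0.01 (95% interval -1.33 to 1.36).

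Whether members of a family, or Pcolce and Bmp1 of the same step, moved unequally was tested on their difference within each array. The test was an exact permutation test of the F statistic over the 280 splits of the arrays into 3 ages, adjusted over 7 pairs. It used the upper tail of F, which takes differences in any direction. The smallest p this allows is 0.00357. Each p-value is for any difference among the 3 ages, not for the change between day 10 and day 30 printed beside it. By day 20 the change was already -1.73 for Plod3 against Plod1, 0.75 for Pcolce against Bmp1 and 0.84 for P4ha2 against P4ha1. Plod3 fell relative to Plod1 by 1.56 between day 10 and day 30 (exact p = 0.0107, adjusted p = 0.037, n = 3 per age). Pcolce rose relative to Bmp1 by 1.37 (exact p = 0.0107, adjusted p = 0.037, n = 3 per age), with day 10 arrays at 1.98, 2.61 and 1.78 and day 30 arrays at 3.21, 3.37 and 3.90. Neither call was stable to leaving out arrays: 0 pairs were called without day 10 replicate 1, any 1 of the day 20 arrays, or day 30 replicate 2 or 3, and 1 pair, P4ha2 against P4ha1, without day 30 replicate 1. With the mean of probe sets the Plod3 to Plod1 change was -0.69 (adjusted exact p = 0.22). Plod2 against Plod1 changed by -1.94 (exact p = 0.0357, adjusted p = 0.083). It was -0.89 with the mean of probe sets and -1.28 without day 10 replicate 1. Without day 10 replicate 3 it was -2.45, and there the pair was called (adjusted exact p = 0.05). For P4ha2 against P4ha1 the change was 0.61 (exact p = 0.0679, adjusted p = 0.12), and it was 0.29 without day 30 replicate 1, the setting in which this pair was called. The other pairs were P4ha3 against P4ha1 (1.09), P4ha3 against P4ha2 (0.47) and Plod2 against Plod3 (-0.37), with adjusted exact p = 0.27, 0.47 and 0.47. Leaving out replicate 3 of day 10 gave 0.53 for P4ha3 against P4ha1, and leaving out replicate 2 gave 1.63 (adjusted exact p = 0.025).

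The genes most like each member over time were found by the root mean square difference of their log2 profiles over the 9 arrays, each gene centred on its mean. For Plod1 they were Kdelr3 (0.192), Ets2 (0.208) and Tcp11l2 (0.251). For P4ha2 they were Selenom (0.290), Kdelr3 again (0.299) and Abhd18 (0.310). Kdelr3, which encodes a receptor that returns proteins to the endoplasmic reticulum, went from 8.47 at day 10 to 10.68 at day 20 and 10.36 at day 30 (mean log2 signal, n = 3). P4ha1 lay nearest to Foxo1 (0.198), Neo1 (0.202) and Rgl3 (0.202). P4ha3 lay nearest to Olfml2b (0.262), Lpl (0.339) and Lhfp (0.341), and Pcolce to Nipa1 (0.198), Endod1 (0.202) and Pcdhb22 (0.215). These are descriptions of likeness in 9 arrays.

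Other genes of collagen folding, modification and crosslinking moved in the same direction where they passed. Of 28 listed, 25 were measured, 12 rose by day 30 and none fell, with a median difference of 0.61. Lox, the lysyl oxidase gene, rose from 5.32 ± 0.68 to 12.16 ± 0.69 (log2 signal, SD, n = 3), up by 6.83 (SE 0.44, adjusted p = 0.00011). P3h3, a gene of the prolyl 3-hydroxylase family, rose by 3.97 (SE 0.38, adjusted p = 0.00048). P3h1, P3h2 and P3h4 did not pass, at 0.40, -0.78 and 0.66 (adjusted p = 0.057, 0.067 and 0.059). All P3h2 arrays of day 20 and day 30 lay below those of day 10. Fkbp14 and Fkbp9, prolyl isomerase genes of the endoplasmic reticulum, rose by 1.52 and 0.90, the first by 0.71 with the mean of its probe sets. Sparc, which encodes a collagen-binding matricellular protein, rose by 1.18 (0.75 with its probe sets averaged), Crtap, a partner of prolyl 3-hydroxylase, by 1.06, Colgalt1, which adds galactose to hydroxylysine, by 0.61, and Loxl4 by 0.52.

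P4hb, the beta subunit of prolyl 4-hydroxylase, differed by 0.50 (95% interval 0.15 to 0.85, adjusted p = 0.053), and Ppib, the cyclophilin of the prolyl 3-hydroxylase complex, by 0.21 (-0.13 to 0.56, adjusted p = 0.37). Adamts3, which encodes a protease for the N-terminal propeptide, rose by 1.54 by day 20 (adjusted p = 0.00088) and then fell by 0.95 (adjusted p = 0.045), the 1 call between day 20 and day 30 among these 25 genes. Adamts3, Ppib, P4hb, P3h1, P3h2 and P3h4 were chosen for mention after their values were seen. With array weights 19 of the 25 genes rose by day 30, but the share of all genes called with these weights was not computed.

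The collagen chains themselves were examined as 2 lists, and no test compared these with the modifying enzymes. All 9 listed genes of fibrillar collagen chains rose by day 30, with a median difference of 3.48, and 5 had already risen by day 20. Col1a1 rose from 6.85 ± 0.71 to 13.13 ± 0.43 (log2 signal, SD, n = 3), up by 6.28 (SE 0.43, adjusted p = 0.00013). Col2a1 rose by 4.40, Col5a2 by 3.90, Col11a1 by 3.79, Col3a1 by 3.48, Col1a2 by 3.39, Col5a3 by 2.32 (1.17 with its probe sets averaged) and Col11a2 by 1.36. Col5a3 read 4.78 to 4.85 in the day 10 arrays, below the endoderm markers there, and that signal may be background. The call of Col11a2 was lost in 4 of 18 alternatives (highest adjusted p = 0.074), among them the fits that left out replicate 1 or 2 of day 10, or replicate 2 of day 30. Between day 20 and day 30 Col5a3 alone of the 9 chains rose (1.66, adjusted p = 0.018). Of the 6 basement membrane chains, whose median difference was 0.53, Col4a2 (0.68) and Col4a4 (0.93) rose by day 30. The call of Col4a4 was lost in 5 of 17 alternatives (highest adjusted p = 0.083). Among them were the mean of probe sets (0.59) and the fits without replicate 2 of day 10, or replicate 2 or 3 of day 30. Col4a4 read 3.79 to 3.99 in the day 10 arrays and 4.26 to 5.15 in those of day 30. Endoderm markers averaged 4.89 to 5.01 and 4.81 to 4.99 in the same arrays, so the Col4a4 signal may be background. The other chains were at 0.90 (Col4a5), 0.38 (Col4a1), 0.19 (Col4a3) and -0.01 (Col4a6, whose sign turned without some arrays). Col4a5 passed in 4 of 18 alternatives, among them without day 10 replicate 2 (1.14, adjusted p = 0.033) or day 10 replicate 3 (0.55, adjusted p = 0.038). Col4a1 passed with the mean of probe sets (0.59, adjusted p = 0.041) and was 0.22 without day 30 replicate 2. Col4a3 ran from 0.08 to 0.37, when replicate 3 or replicate 1 of day 30 was left out. Without 1 array, 1 to 3 of the 6 chains rose.

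**Figure D4:**
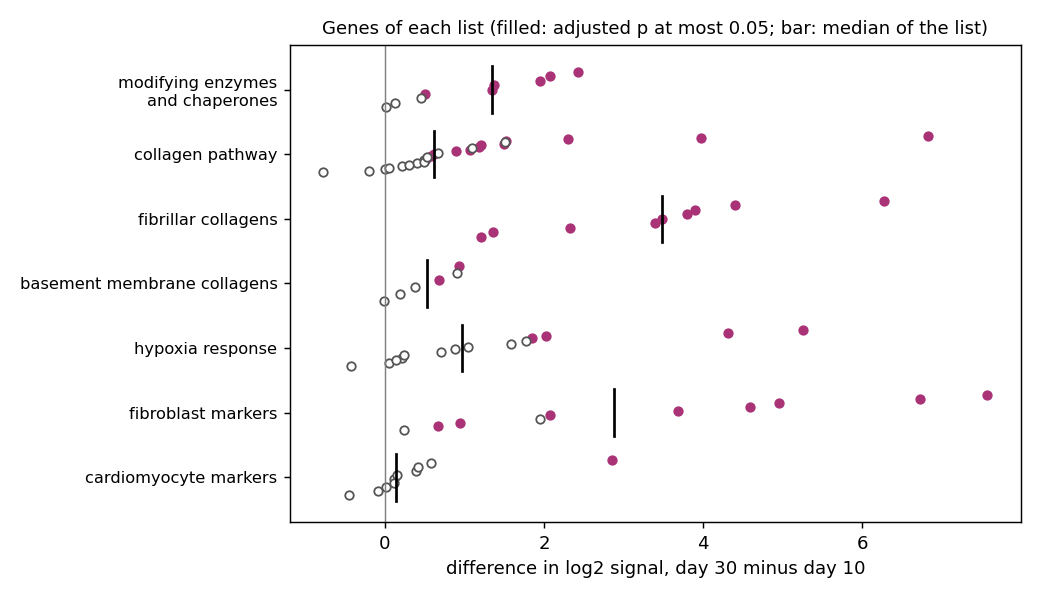
Difference in log2 signal between day 30 and day 10 (horizontal axis) for each gene of 7 lists, filled where the adjusted p was at most 0.05, with a bar at each list's median. The modifying enzymes and chaperones have a median of 1.34, between those of the wider collagen pathway (0.61) and the fibrillar collagens (3.48), and the cardiomyocyte markers have a median of 0.14.

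P4ha1 and P4ha2 are also known targets of hypoxia-inducible factors, so a list of 14 other hypoxia response genes was set beside them. Of these, 4 rose by day 30 and none fell, with a median of 0.96: Car9 (5.26, adjusted p = 0.00048), Egln3 (4.31), Adm (1.85) and Ndrg1 (2.02). By day 20, 5 had risen, with a median of 1.11, and none passed between day 20 and day 30, where the median was -0.26. Higd1a (0.71), Vegfa (1.78), Egln1 (1.04) and Pdk1 (1.58) did not pass by day 30. The rest of the list did not pass either: Bnip3 (0.89), Pgk1 (0.23), Ldha (0.22), Ddit4 (0.14), Ankrd37 (0.05) and Slc2a1 (-0.43). Car9 read 4.41, 4.19 and 4.95 at day 10, below the mean of the endoderm markers in the same arrays (4.89 to 5.01). Its day 10 signal may be background. The mean level of the list was 8.50, 9.37 and 9.90 (log2) in day 10 replicates 1, 2 and 3. P4ha1 and P4ha2 stood in the same order among those arrays. P4ha3, Plod1, Plod2, Plod3, Serpinh1, Pcolce and Bmp1 did not, although Plod2 is also known as a hypoxia target. That order was also seen in mean levels of the fibrillar collagens and of the cardiomyocyte, endothelial, pluripotency and endoderm markers. For the cardiomyocyte markers these were 11.72, 12.17 and 12.52. The other lists did not have it. In the hypoxia list the day 20 arrays had 10.33 to 11.16 and the day 30 arrays 10.39 to 10.83. Without day 10 replicate 3, 7 of the 14 passed, Vegfa (2.50, adjusted p = 0.0056), Egln1 (1.37, 0.034) and Pdk1 (2.23, 0.022) among them. The share of all genes called without that array was not computed, and more cardiomyocyte markers were called there too. Without day 10 replicate 1 the same 3 genes were at 1.18 (Vegfa), 0.55 (Egln1) and 0.73 (Pdk1), and none of the 3 passed, so these values hang on which day 10 array is kept. Ndrg1 was lost without day 10 replicate 1 or 2 or day 30 replicate 1 or 2 (highest adjusted p = 0.066). The part of a hypoxia response in the rise of the P4ha genes was not tested.

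Markers of other cells moved over the same ages. Of 10 fibroblast markers 8 rose and none fell, with a median of 2.88, among them Thy1 (3.69), S100a4 (4.96) and Dcn (6.73). Their summed signal ran from 12.73 to 13.50 (log2 of the sum) at day 10, 13.85 to 14.73 at day 20 and 15.01 to 15.28 at day 30, without overlap, and 3, 6 and 8 of the 10 were above the median of all gene values. Thy1 read 4.30 to 4.57 in the day 10 arrays, and S100a4 read 4.81 and 4.35 in day 10 replicates 2 and 3. These readings lay below the mean of the endoderm markers (4.89 to 5.01) and may be background. Because these are bulk cultures, fewer or more cells of a type and less or more RNA per cell cannot be told apart, and the part of such cells in the rise of the collagen genes was not tested.

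In the list of cartilage and bone markers 4 of 6 measured genes rose (Comp by 7.71, Acan by 4.52, Sox9 by 1.98, median 1.32), and their summed signal went from 7.58 to 8.07 at day 10 to 12.56 to 13.11 at day 30. Comp read 4.84 and 4.61 in day 10 replicates 2 and 3, which may also be background. Of 7 smooth muscle markers 2 rose and 2 fell (median 1.15), with Pdgfrb at 3.15, Cnn1 at -2.75 and Acta2 at -1.04, and 1 rose when replicate 2 of day 10, or replicate 1 or 3 of day 30, was left out. Of 8 endothelial markers 1 rose, Erg (1.27), and 1 fell, Kdr (-1.13), with Tie1 at -0.93 and a median of -0.73, and 0 of the 8 were above the median of all gene values at day 20 or day 30. Among 6 epicardial markers Krt19 fell (-3.29), Msln stood at 1.85 and Aldh1a2 at -0.34, with a median of 0.10, and 1 of the 6 rose without day 30 replicate 3. Of 6 pluripotency markers 5 fell (median -2.14), including Sall4 (-2.61), Pou5f1 (-2.17) and Dppa4 (-1.16). None of 6 endoderm markers passed in limma (median -0.0025), with Sox17 at -0.45, Afp at 0.12 and Foxa2 at -0.17, and all 6 were below the median of all gene values at every age. Of 10 cardiomyocyte markers 1 rose by day 30, Tnni3 (2.85), with Myh6 at 0.41 and Nkx2-5 at -0.46 and a median of 0.14. Without day 10 replicate 3, 4 of the 10 rose, and the share of all genes called in that fit was not computed.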

How the data were processed

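RNA from 9 samples was hybridised to 3′ expression arrays after biotin labelling, per the labels' protocols. The authors deposited a log2 signal for each probe set on each array. How they normalized it, and the log base, is not given in the sources used here. A base of 2 was inferred from the range of 2.77 to 14.52, and array medians lay within 0.075, so the values were used as deposited. Without scanner files, background could not be judged per probe.

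The platform annotation gave 1 symbol to 34958 of the 45101 probe sets, several to 932 and none to 9211, and 34754 were found in the RefSeq gene table (0 symbols differed). Where a gene had several probe sets, the one of highest mean over the arrays stood for it. The model, with 1 mean per age over the 9 arrays, was run in limma 3.58.1 under R 4.3.3 (6 residual and 2.18 prior degrees of freedom, two-sided), without a filter, adjusted by the Benjamini-Hochberg method over 18193 genes, threshold 0.05. All probe sets except 64 controls were also fitted. A simulation of the day 10 to day 30 comparison on 18193 genes altered 100 genes 2-fold and 100 genes 4-fold, with 1 SD per gene at every age. It recovered 65 and 89 of these, and 13 of the 167 genes called were false. In the data 11.2% of genes rose and 9.92% fell, and day 10 arrays had the wider spread. The simulated rates therefore need not hold for this comparison.

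The members and lists were chosen with earlier results of these data known. Named were all members, up to 8 genes of each pathway list and 3 of each marker list ranked by adjusted p between day 10 and day 30, and the 3 nearest genes of members that changed at least 2-fold. Beyond this rule, the rest of the hypoxia list, Adamts3, Ppib, P4hb, P3h1, P3h2 and P3h4 were named after their values were seen. Of 118 genes listed beside the members, 113 were measured. Whether samples with the same replicate number shared a culture or batch is not in the labels. Correlations of their deviations from the mean of their age ran from -0.149 to 0.434, the highest being replicate 2 at days 20 and 30. Alternatives were quantile normalization, median centring, a filter on dim genes, the mean or the highest median of probe sets, a trended robust prior, array weights, fits of 2 days, the replicate block and leaving out each array.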

Additional observations from a re-analysis of the deposited data

How the results depend on the processing

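The 9 arrays limit what can be seen: among the genes that did not pass, the 95% intervals of Plod2 reach past 2-fold. The count of 6 genes called by day 30 stayed between 5 and 7 in 18 alternatives. For the alternatives the share of all genes called was not computed, so their counts cannot be set against it. Of 162 gene differences recomputed for day 30 against day 10, 147 kept their direction and call, 4 lost it, 2 gained it and 9 changed sign. For day 20 against day 10 these were 145, 15, 0 and 2 of 162, for day 30 against day 20 155, 0, 0 and 7 of 162, and for the later minus the earlier change 134, 0, 7 and 12 of 153. Among the 44 other genes named by rank from the pathway lists or as nearest genes, 743 of 788 values were unchanged in direction and call. The cause of the changes was not tested.

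Without 1 array, the number of genes called by day 20 was 3 (without day 20 replicate 1 or 2) to 4, that for the later minus the earlier change 0 to 3 (3 without day 10 replicate 3), that of probe sets called by day 30 5 to 9, and that of pairs 0 to 3. The later minus the earlier change called 1 gene without dim genes and 3 with array weights, and 1 pair was called with the mean of probe sets. With the replicate block the counts of genes called were 6 by day 30, 5 by day 20, 0 from day 20 to day 30 and 0 for the later minus the earlier change, and 8 probe sets were called. Among the basement membrane chains the block let Col4a5 pass (adjusted p = 0.0398), for 3 of 6.

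Values near 0 that did not pass changed sign. Bmp1 by day 30 was -0.001 with centred arrays, -0.046 with the mean of probe sets, -0.0159 with array weights and -0.26 to 0.33 without 1 array. By day 20 it ran from -0.34 to 0.25 without 1 array. From day 20 to day 30 it was -0.0338 with the mean of probe sets and -0.0193 to 0.27 without 1 array, and for the later minus the earlier change -0.0215 and -0.17 to 0.42. Plod1 from day 20 to day 30 was 0.0744 with the mean of probe sets and -0.13 to 0.0577 without 1 array. Without 1 array, Plod2 by day 30 ran from -0.29 to 0.59, Col4a6 by day 30 from -0.23 to 0.15, Serpinh1 for the later minus the earlier change from -0.13 to 0.35, P4ha3 minus P4ha2 from -0.0708 to 0.96 and Plod2 minus Plod3 from -0.72 to 0.0057. Pcolce for the later minus the earlier change was -0.0122 with quantile normalization and -0.24 to 0.45 without 1 array.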
